A study of Mus musculus with 12 samples.

Results

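The genes of the cytosolic ribosome were compared between *Myt1l* (+/−) and (+/+) primary mouse cultures. Members were chosen by symbol alone, as every gene of the count table named *Rpl* or *Rps* with a number (and the endings a, x, l or l1), *Rplp0* to *Rplp2* and *Rpsa*. The rule took 86 of 55397 genes, of which 53 were assigned to the large (60S) subunit and 33 to the small (40S) subunit. The subunit was read from the symbol alone, also for pseudogenes, so it does not show that a gene's product is in the ribosome. It left out pseudogenes with -ps in their symbol. GENCODE M21 gave 82 members as protein coding, *Rpl32l*, *Rpl6l* and *Rps12l1* as processed pseudogenes and *Rps4l* as a transcribed processed pseudogene. The members lay on 19 chromosomes, with 15 on chromosome 7 and 4 on chromosome X.

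A ribosome holds each of its proteins in a fixed proportion, and surplus ribosomal proteins are degraded. Their mRNAs are among the most abundant of a growing cell and share a tract of pyrimidines at the 5′ end (the TOP motif), through which mTOR and LARP1 control their translation. In neurons, ribosomes also serve translation in dendrites and axons, and neurons, astrocytes and other cells of a culture all express these genes.

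RNA was from cultures of postnatal day 0 pups at day in vitro 11 (DIV11), 3 (+/−) animals (505, 506 and 508) and 3 (+/+) animals (510, 511 and 513), with 2 libraries each. The (+/−) animals carried a germline CRISPR/Cas9 deletion of 7 bp in exon 6 of *Myt1l*, a frameshift, and all cultures of both genotypes received 2 µM Ara-C, which kills dividing cells, from day 3 after plating. The labels give the tissue as cortex, the strain as C57BL/6J and all animals as male, whereas the study's Methods name hippocampus or cortex and C57BL/6N mice. Such cultures are mixed, so in bulk RNA fewer cells of a type and less RNA per cell cannot be told apart.

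Depth was 40642699 to 43745258 counts per (+/−) animal and 43129302 to 52833161 counts per (+/+) animal. *Myt1l* itself was at 89.0, 146 and 165 CPM (counts scaled to library size by TMM) in (+/−) animals and at 119, 147 and 109 CPM in (+/+) animals (log2 fold change 0.09, standard error 0.22). As the study reported no decay of the mutant mRNA in its mice, the level of *Myt1l* does not check the genotypes. Animal 511 held 18805 counts of *Xist*, against 5 to 10 in the other animals, which goes against its label as male. The main counts are therefore also given without it.

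The start sites of most members with the largest differences, and of some of their paralog partners, are shown first because the pyrimidine tract lies there. RefSeq promoters (GRCm38.p6) were found for 63 of the 86 members, with 75 start sites, and *Rpl29*, *Rps4l* and *Rpl3* were among the other 23. Each line holds 15 bases before and 15 bases from the annotated start on the gene's strand, 5′ to 3′, with stretches of 5 or more C or T in capitals.
*Rpl13*, chr8:123102335-123102364, plus strand: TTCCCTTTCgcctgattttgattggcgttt
*Rpl22*, chr4:152325711-152325740, plus strand: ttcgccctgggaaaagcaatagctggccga
*Rps28*, chr17:33824548-33824577, minus strand: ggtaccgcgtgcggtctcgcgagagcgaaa
*Rpl27a*, chr7:109519180-109519209, plus strand: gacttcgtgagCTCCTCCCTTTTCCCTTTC
*Rpl7l1*, chr17:46782642-46782671, minus strand: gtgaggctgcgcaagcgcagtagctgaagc
*Rps9*, chr7:3704026-3704055, plus strand: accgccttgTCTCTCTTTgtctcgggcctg
*Rps27l*, chr9:66946071-66946100, plus strand: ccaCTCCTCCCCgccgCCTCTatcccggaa
*Rps27*, chr3:90213634-90213663, minus strand: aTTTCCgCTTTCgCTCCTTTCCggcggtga
*Rpl22l1*, chr3:28805493-28805522, plus strand: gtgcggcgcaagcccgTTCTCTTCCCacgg
Of these, *Rpl27a*, *Rps9*, *Rps27l*, *Rps27* and *Rpl22l1* met the rule for a TOP-like start, a C followed by at least 4 more pyrimidines within 5 bases of the start. *Rpl13*, *Rpl22*, *Rps28* and *Rpl7l1* did not at the start shown, and a start annotated a few bases off would miss the tract. The start of *Rps4x* and the further annotated starts of *Rpl22* and *Rps27l* are not shown, and none of them met the rule.

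Of the 86 members, 80 passed the low-count filter of edgeR, which kept 18264 genes, and held 686 to 24373 counts per animal (median 5995). The members took 1.21%, 1.28% and 1.10% of all counts in (+/−) animals 505, 506 and 508, and 1.36%, 1.25% and 1.17% in (+/+) animals 510, 511 and 513. Over the 12 single libraries the share ran from 1.10% to 1.36%, and both libraries of an animal gave nearly the same value.

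Mean levels per gene ran over a wide range. *Rpl4*, *Rpl3* and *Rplp0* were the highest of the 60S subunit, and *Rps2*, *Rpsa* and *Rps4x* of the 40S subunit, in CPM and without regard to length. Per kb of the principal transcript, *Rpl41*, which encodes the shortest protein of the ribosome, led with 745 CPM per kb and *Rplp1* of the acidic stalk followed with 634 CPM per kb, against a median of 204 CPM per kb over the tested members. The lowest were *Rps4l* with 22.8 CPM per kb and *Rpl7l1* with 28.7 CPM per kb.

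The members lay slightly lower in (+/−) cultures, by less than the animals of a genotype differed. The summed level was 11665, 12858 and 10983 CPM in (+/−) animals 505, 506 and 508, and 13806, 12607 and 11850 CPM in (+/+) animals 510, 511 and 513. The (+/−) animal 506 thus lay above the (+/+) animals 511 and 513, and the genotypes overlapped. The (+/−) cultures averaged 11840 ± 949 CPM and the (+/+) cultures 12750 ± 986 CPM (SD, n = 3 per genotype), a difference of −7.20%. With single animals left out, a check added after the data were seen, it was −3.21% without animal 510, −3.86% without 508, −6.54% without 505, −7.74% without 511, −10.4% without 513 and −11.2% without 506. As the sum is a score over the members, it was given no test.

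**Figure D1:**
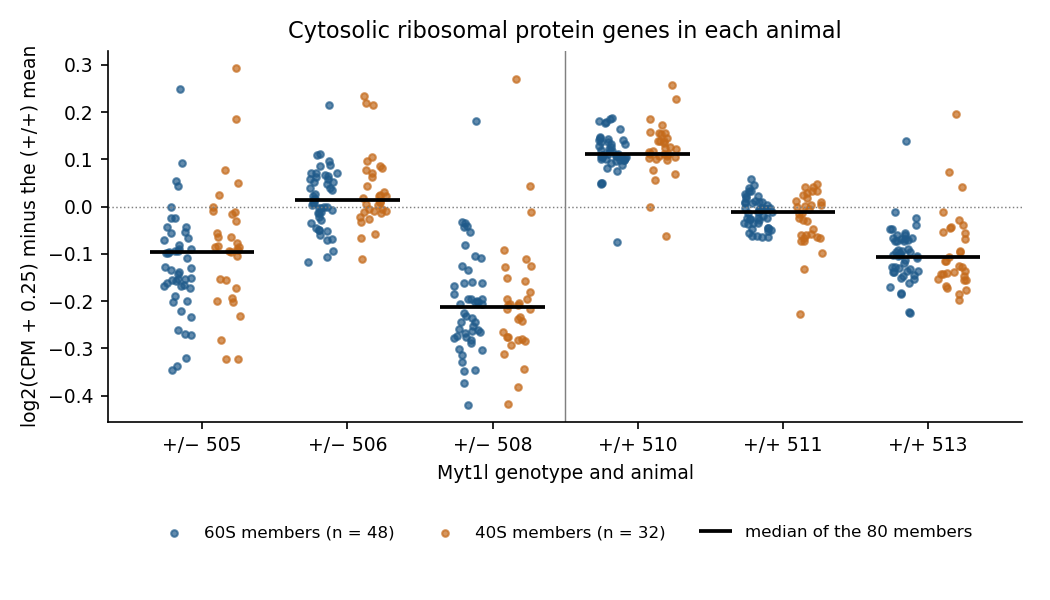
Level of each of the 80 tested members in each animal (y axis, log2(CPM + 0.25) minus the mean of the (+/+) animals), with 60S members in blue, 40S members in orange and the median of the members as a black line. The medians lie at −0.10, 0.01 and −0.21 in (+/−) animals 505, 506 and 508, and at 0.11, −0.01 and −0.11 in (+/+) animals 510, 511 and 513, so the genotypes overlap.

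The members moved as a block between animals. In 70 of the 80 the (+/+) animal 510 was the highest of all 6, and in 65 the (+/−) animal 508 was the lowest. The spread of the animals around their own genotype mean had a median SD of 0.12 on the log2 scale over the members, against 0.18 over all tested genes and 0.14 over the 8983 tested genes at or above the lowest member. When each member was divided by the summed level of its animal, the median SD was 0.05. The ratio of summed 60S to summed 40S level was 1.59, 1.60 and 1.62 in (+/−) animals and 1.61, 1.63 and 1.61 in (+/+) animals. Both subunits therefore held nearly the same proportion in all 6 cultures.

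No member passed an adjusted p under 0.1 in edgeR's quasi-likelihood test, and no gene of the table did (0% called higher and 0% lower, smallest adjusted p = 0.17). The fitted log2 fold change was negative for 71 of the 80 members and positive for 9, against 49.6% negative over all tested genes. Its median was −0.10 over the members, −0.11 over the 48 tested members of the 60S subunit and −0.10 over the 32 of the 40S subunit, against 0.00 over all tested genes. Since the members share their animals and rise and fall together, these 71 are not independent observations. Only *Rpl22* had a negative and only *Rpl7l1* a positive change at an unadjusted p under 0.05, where 9.11% and 13.2% of all tested genes did so. Without animal 511, 0 members were called, the median was −0.12 and 6 members were positive. The number of positive members was 15 without animal 508, 18 without animal 510 and 5 without animal 513. Without animal 513, edgeR called *Rpl22* lower (log2 fold change −0.36, adjusted p = 0.09) and *Rpl7l1* higher (0.27, adjusted p = 0.09), where 5.95% of all genes were called lower and 12.3% higher.

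The genotypes overlapped in 79 of the 80 members. In *Rpl7l1* the lowest (+/−) animal exceeded the highest (+/+) animal, and 0 members were separated the other way, whereas 15.5% of all tested genes were separated upwards and 13.5% downwards. This count rested on single animals, since without (+/−) animal 506 there were 42 members below and 1 above (20.8% and 21.8% of all genes), and without (+/+) animal 513 there were 27 below and 3 above (26.8% and 28.4% of all genes). DESeq2 called 0 members, with 8.01% of genes called higher and 4.57% lower. The 95% interval of the log2 fold change excluded a 1.5-fold change in either direction for 79 of the 80 members. The lowest bound was −0.60 (*Rpl13*) and the highest 0.48 (*Rps27l*). The median change of −0.10 lay within the interval for 77 of the 80, as 0 did for 78. These intervals bound single members, and a shift common to the members was not tested.

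**Figure D2:**
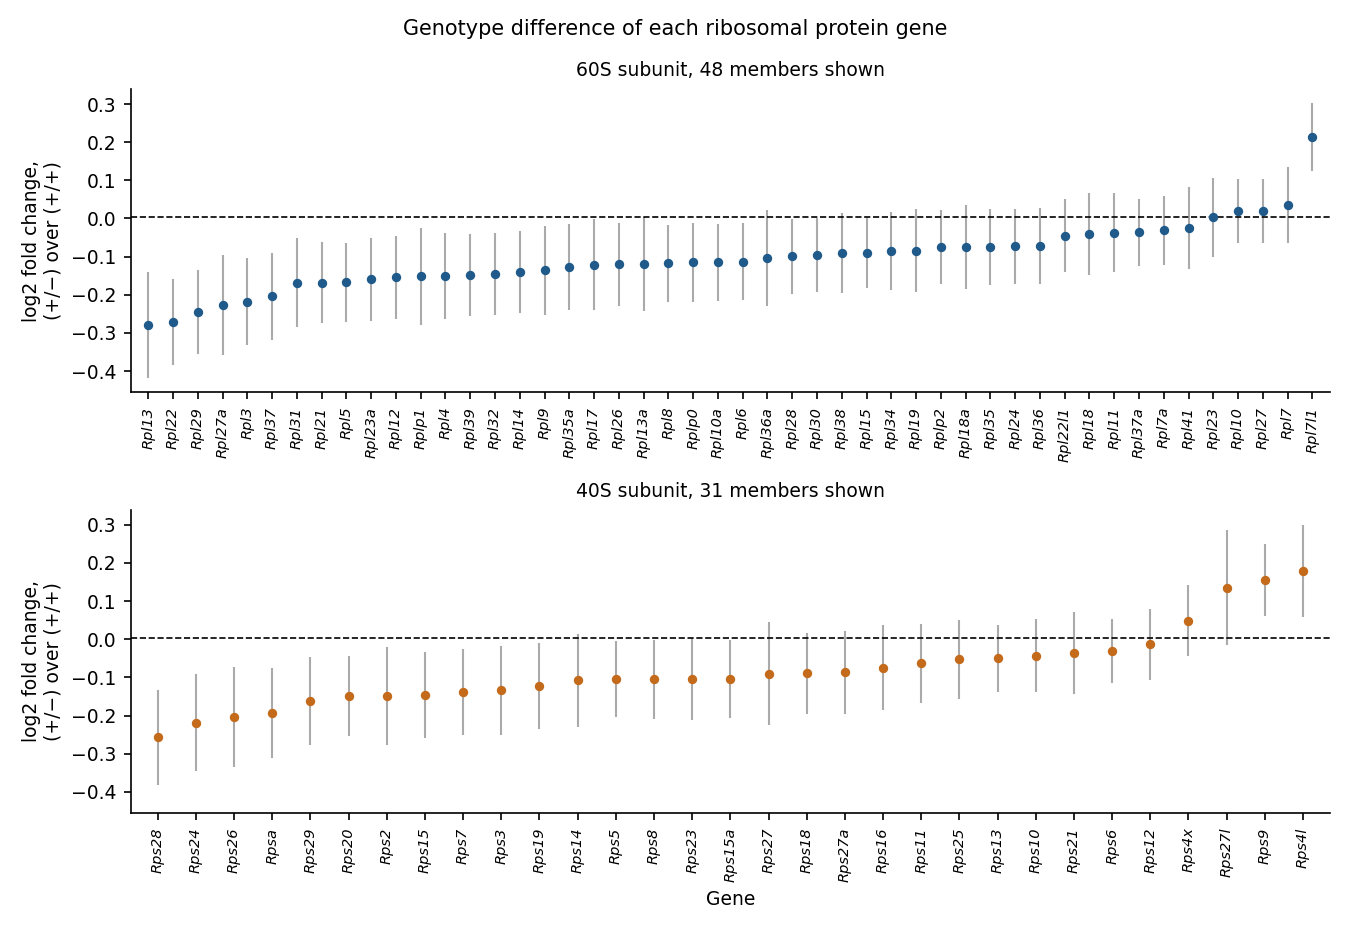
Log2 fold change, (+/−) over (+/+), of the 48 tested members of the 60S subunit (top) and of all but 1 of the 32 of the 40S subunit (bottom), ordered by value, with bars of 1 standard error from edgeR and a dashed line at the median of all genes tested (0.00). Most members sit slightly below the line, from −0.28 (*Rpl13*) to 0.21 (*Rpl7l1*).

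*Rpl13* had the most negative change of the 60S subunit. It was at 130.7, 158 and 124 CPM in (+/−) animals and at 188, 171 and 142 CPM in (+/+) animals, with animal 506 above animal 513. On the log2 scale it changed by −0.28 with a standard error of 0.14, and edgeR gave an adjusted p of 0.26.

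*Rpl22*, an RNA-binding protein on the outside of the 60S subunit near the exit tunnel, was at 104, 119.8 and 100.4 CPM in (+/−) animals and at 140.4, 135 and 116 CPM in (+/+) animals. Animal 506 alone of the (+/−) animals lay above animal 513. The fitted log2 change of −0.27 had a standard error of 0.11, a 95% interval of −0.53 to −0.01 and an adjusted p of 0.21 from edgeR. It was −0.29 from library 1 alone and −0.26 from library 2 alone.

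*Rps28*, a small protein at the mRNA exit of the 40S subunit, was at 73.6, 80.1 and 64.7 CPM in (+/−) animals and at 98.4, 87.2 and 75.4 CPM in (+/+) animals. The fold change was −0.26 on the log2 scale (standard error 0.13). *Rpl29* followed with −0.24 and *Rpl27a* with −0.23 on the log2 scale, both with overlapping genotypes.

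*Rpl7l1*, a paralog of *Rpl7*, was the only member with separated genotypes in CPM. It was at 41.3, 40.3 and 39.4 CPM in (+/−) animals and at 33.0, 33.2 and 38.2 CPM in (+/+) animals. Animal 513 lay close to the (+/−) animals. The fitted log2 change of 0.21 had a standard error of 0.09 and an adjusted p of 0.22 from edgeR, and the exact two-sided permutation test gave p = 0.1, the smallest that 3 against 3 allow. In library 1 alone the genotypes of *Rpl7l1* overlapped.

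*Rps9*, a protein of the 40S body that helps to keep decoding accurate, was at 172, 178 and 156 CPM in (+/−) animals and at 151, 144 and 159.5 CPM in (+/+) animals. Only animal 513 lay above a (+/−) animal. The fitted log2 change was 0.16, with a standard error of 0.09 and an adjusted p of 0.33 from edgeR. *Rps4l* had a log2 fold change of 0.18, *Rps27l* of 0.13 and *Rps4x*, the X-linked copy of Rps4, of 0.05.

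Of the most abundant members, *Rpl4* was at 381, 413 and 366 CPM in (+/−) animals and at 468, 431 and 387 CPM in (+/+) animals. *Rps2* was at 312, 407.5 and 338.5 CPM in (+/−) animals and at 423, 373 and 376 CPM in (+/+) animals. In both genes a (+/−) animal, 506, lay above the lowest (+/+) animal. *Rps4x* was at 246, 246 and 231 CPM in (+/−) animals and at 242, 217.5 and 239.7 CPM in (+/+) animals, and its change was positive (0.05 on the log2 scale). *Rpl3*, at the peptidyl transferase centre, changed by −0.22 on the log2 scale (standard error 0.11) and *Rpsa*, which also serves as the laminin receptor, by −0.19 (standard error 0.12).

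The acidic stalk recruits elongation factors to the 60S subunit. *Rplp0* was at 328, 362 and 315 CPM in (+/−) animals and at 385, 357 and 345 CPM in (+/+) animals, and *Rplp1* and *Rplp2* likewise overlapped. Their log2 fold changes were −0.11, −0.15 and −0.07 for *Rplp0*, *Rplp1* and *Rplp2*, and 0 of the 3 passed the test.

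*Rpl5* and *Rpl11* form a particle with 5S rRNA that binds MDM2 when ribosome assembly is disturbed. *Rpl5* was at 160.4, 170.4 and 148 CPM in (+/−) animals and at 192.5, 182 and 164 CPM in (+/+) animals (log2 fold change −0.17). *Rpl11* was at 167, 183 and 154 CPM in (+/−) animals and at 184, 170.3 and 161 CPM in (+/+) animals (log2 fold change −0.04). Neither passed the test.

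In humans, loss of 1 copy of certain ribosomal protein genes causes Diamond-Blackfan anaemia. The 8 described here (*Rps7*, *Rps10*, *Rps19*, *Rps24*, *Rps26*, *Rpl5*, *Rpl11* and *Rpl35a*) had negative fold changes in 8 of 8, with a median of −0.13 on the log2 scale, and 0 passed the test. *Rps24* was the lowest of them, at 188, 206 and 166 CPM in (+/−) animals and at 243, 217 and 191 CPM in (+/+) animals (log2 fold change −0.22, standard error 0.13). *Rps19*, the gene most often mutated in that disease, had a log2 fold change of −0.12. The genotypes overlapped in all 8. Of a list of 10 members of the 60S subunit, most but not all of them around the polypeptide exit tunnel, 10 were negative. Their median was −0.13 on the log2 scale, and 0 passed the test.

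As the members shared most of their variation, each was also read as a share of the summed level of its animal. On that scale 10 of the 80 members (12.5%) had every (+/−) animal below every (+/+) animal, against 5.3% of all tested genes, and 7 (8.75%) had every (+/−) animal above, against 13.8%. The sum itself was lower in (+/−) cultures, which on average raises every gene of those animals on this scale. Dividing by their own sum also narrows the spread of the members, to the median SD of 0.05 given above, so the percentages over all genes are no like-for-like background and nothing is read from the difference. The 10 lower members were *Rpl22*, *Rps28*, *Rpl29*, *Rps24*, *Rpl37*, *Rpl31*, *Rpl5*, *Rpl23a*, *Rps20* and *Rpl32*, and the 7 higher were *Rps9*, *Rpl7*, *Rpl27*, *Rpl23*, *Rpl11*, *Rpl18* and *Rps25*.

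The steepest of these shares were those of *Rps9* and *Rpl22*. *Rps9* made up 1.48%, 1.39% and 1.42% of the summed level in (+/−) animals and 1.10%, 1.14% and 1.35% in (+/+) animals. *Rpl22* made up 0.892%, 0.932% and 0.914% in (+/−) animals and 1.02%, 1.07% and 0.975% in (+/+) animals. *Rpl7*, which binds next to the 5S particle, made up 2.19%, 1.95% and 2.10% in (+/−) animals and 1.88%, 1.83% and 1.93% in (+/+) animals. Of the 5S particle, *Rpl5* was among the lower and *Rpl11* among the higher shares. In CPM both had negative log2 fold changes (−0.17 and −0.04, standard error 0.10 each) and overlapping genotypes, so no divergence is read from their shares. The mean share of a single member differed between genotypes by −0.16 (*Rpl22*) to 0.26 (*Rps9*) on the log2 scale over these 17. *Rpl7l1*, separated in CPM, is not among them. Its share overlapped, with 0.313% in (+/−) animal 506 and 0.322% in (+/+) animal 513, although its mean share differed by 0.32 on the log2 scale.

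Members with a listed paralog were described pair by pair. *Rpl3l* (used in heart and skeletal muscle in place of *Rpl3*), *Rpl10l* and *Rpl39l* (both known from testis) were near or at 0. *Rpl10l* had 0 counts in all 6 animals, a count that allows up to 3 counts per animal. *Rpl39l* held 0 to 5 counts and *Rpl3l* 6 to 11 counts per animal. *Rpl32l*, *Rpl6l* and *Rps12l1* completed the 6 members under the filter, with 5 to 10, 4 to 13 and 0 to 1 counts. These 3 pseudogenes are near copies of *Rpl32*, *Rpl6* and *Rps12*, with 97.5%, 98.7% and 100% identity over the aligned transcript, so their few counts cannot be told apart from reads of the parent gene.

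The other 4 paralogs were well covered. *Rps27l*, a p53 target, was at 57.3, 54.3 and 43.8 CPM in (+/−) animals and at 55.9, 39.9 and 45.8 CPM in (+/+) animals, where its partner *Rps27* was at 101, 99.6 and 81.0 CPM in (+/−) and at 116, 94.3 and 89.0 CPM in (+/+) animals. *Rpl22l1* was at 31.5, 36.7 and 34.1 CPM in (+/−) animals and at 37.9, 33.7 and 34.0 CPM in (+/+) animals. *Rps4l* was at 17.4, 19.6 and 20.3 CPM in (+/−) animals and at 16.0, 15.3 and 19.2 CPM in (+/+) animals. Genotypes overlapped in all 3 genes. *Rpl26*, also on the list of partners, had a log2 fold change of −0.12, *Rpl10* of 0.02, *Rpl39* of −0.15 and *Rpl7* of 0.03.

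The ratio of paralog to partner was computed for these 4 pairs after their values were seen. *Rpl22l1* over *Rpl22* was 0.303, 0.306 and 0.340 in (+/−) animals and 0.270, 0.249 and 0.294 in (+/+) animals. *Rps27l* over *Rps27* was 0.568, 0.545 and 0.540 in (+/−) animals and 0.480, 0.422 and 0.514 in (+/+) animals. In both pairs every (+/−) ratio lay above every (+/+) ratio (exact two-sided permutation test, p = 0.1 each, the smallest possible, with no adjustment for the 4 pairs). Of all tested genes, 25.9% were separated upwards when divided by *Rpl22*, 9.55% by *Rps27*, 8.97% by *Rpl7* and 12.8% by *Rps4x*. *Rpl7l1* over *Rpl7* averaged 0.164 ± 0.005 in (+/−) and 0.146 ± 0.020 in (+/+) cultures, and *Rps4l* over *Rps4x* 0.079 ± 0.008 in (+/−) and 0.072 ± 0.007 in (+/+) cultures (SD, n = 3 each), and both pairs overlapped. Transcripts of the 4 pairs were 72.1% to 81.4% identical where they aligned, with shared runs of at most 35 bases. *Rpl7l1* and *Rpl7* aligned over only 183 bases of transcripts of 1310 and 1163 bases, whereas *Rps4l* and *Rps4x* aligned over 784 bases.

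**Figure D3:**
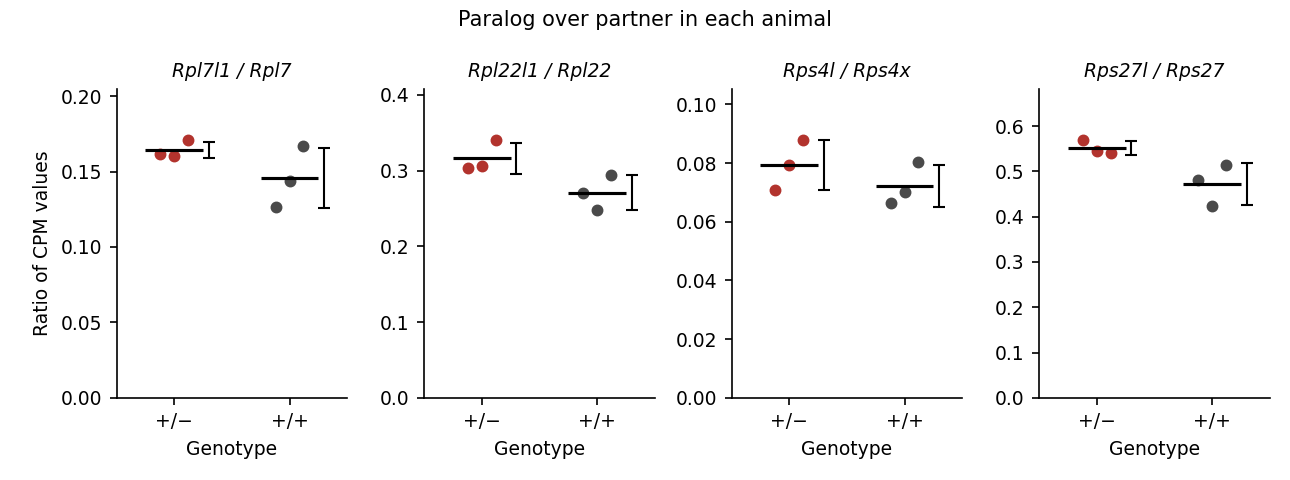
Ratio of the CPM of a paralog to that of its partner in the 3 (+/−) animals (red) and the 3 (+/+) animals (dark grey), with the mean as a line and 1 SD as a bar, y axes from 0. The genotypes are apart for *Rpl22l1* over *Rpl22* and *Rps27l* over *Rps27*, and overlap for *Rpl7l1* over *Rpl7* and *Rps4l* over *Rps4x*.

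Pseudogenes with -ps in their symbol, left out by the rule, held few reads. Of 319 entries 199 had a count and 43 passed the filter. Their sum was 0.255%, 0.252% and 0.29% of the members' counts in (+/−) animals and 0.267%, 0.256% and 0.252% in (+/+) animals. *Rpl38-ps2* was the highest with 416 counts over all animals. Reads that fit a member and a pseudogene equally may have been dropped or split by the counting tool, which the sources used here do not name, so absolute levels of members with many copies are uncertain.

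The promoters of the members were read for short motifs over 300 bases, 250 before and 50 from the start, on both strands. CCGGAAG, the core of ETS factor sites such as GABPA's, was in 34.7% of the 75 member promoters, against 8.86% of all 32851 promoters of the table. AAGATGG, a YY1 motif that can share its first 3 bases with the end of CCGGAAG, was in 16% against 6.34%, and GGGCGG, the Sp1 box, in 58.7% against 35.7%. TATAAA was in 10.7% against 13.6%. AAAGTT, the core motif of MYT1L, which can share 3 bases with TATAAA, was in 10.7% of member promoters and in 14.1% of all promoters. A TOP-like start was found in 42.7% of member promoters and in 18.3% of all promoters. A match is only a match of letters in this window.

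Fold changes of members with and without these letters were set side by side, and their differences were not tested. The median was −0.09 on the log2 scale for the 29 tested members with a TOP-like start and −0.11 for the 30 without. It was −0.13 for the 5 tested members with AAAGTT, 0 of them positive, and −0.09 for the 54 without, 7 of them positive. It was −0.09 for the 24 with CCGGAAG (1 positive) and −0.10 for the 35 without (6 positive). It was −0.15 for the 7 with TATAAA (0 positive) and −0.09 for the 52 without (7 positive). With GGGCGG it was −0.09 over 37 members (6 positive), and without it −0.12 over 22 (1 positive). With AAGATGG it was −0.11 over 10 members (1 positive), and without it −0.09 over 49 (6 positive).

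Of 6 genes described here that encode cytosolic ribosomal proteins or close copies under symbols the rule does not match, 5 were negative and 1 positive (median log2 fold change −0.05), and 0 passed the test. *Rps3a1*, of the 40S subunit, was at 166, 168 and 147 CPM in (+/−) animals and at 199.5, 179.8 and 159 CPM in (+/+) animals (log2 fold change −0.16). *Fau*, a fusion gene that yields a 40S protein, was at 124, 151 and 122 CPM in (+/−) animals and at 152, 147 and 137 CPM in (+/+) animals (log2 fold change −0.14). *Rps27rt*, a retrogene copy of *Rps27* with few reads, was at 0.264, 0.507 and 0.590 CPM in (+/−) animals and at 0.461, 0.200 and 0.328 CPM in (+/+) animals, and its log2 fold change of 0.43 had a standard error of 0.42.

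Other genes of the translation machinery were compared by list, and 0 genes of any list passed the edgeR test. DESeq2 called 3 of the genes that control ribosomal protein synthesis and 1 TOP gene lower and 1 mitochondrial ribosomal protein higher, and 0 genes of the other translation lists (4.57% of all genes lower and 8.01% higher). Of 20 TOP mRNA genes that encode no ribosomal protein, 17 were negative, with a median log2 fold change of −0.11. Of 12 elongation and release factors, several of them also TOP genes, 10 were negative (median −0.13). Of 54 tested initiation factors 39 were negative (median −0.07), of 40 nucleolar assembly and RNA polymerase I genes 26 (median −0.07), and of 78 mitochondrial ribosomal proteins 49 (median −0.03).

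The 3 genes with the smallest p of each list were read in the animals. Among TOP genes these were *Pabpc1*, the poly(A)-binding protein, *Gas5*, a host of small nucleolar RNAs, and *Hnrnpa1*, a splicing factor. *Pabpc1* was at 205.5, 219 and 204.5 CPM in (+/−) animals and at 275.5, 263 and 227 CPM in (+/+) animals (log2 fold change −0.28, adjusted p = 0.19 from edgeR). *Gas5* was at 57.3, 50.9 and 47.5 CPM in (+/−) animals and at 71.0, 60.2 and 58.9 CPM in (+/+) animals. In all 3, which were taken for their small p, every (+/−) animal lay below every (+/+) animal. Over the 20 TOP genes this held for 4 and the opposite for 0, against 13.5% and 15.5% of all tested genes.

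Among nucleolar genes the nucleostemin gene *Gnl3* was at 18.9, 18.6 and 17.1 CPM in (+/−) animals and at 30.2, 22.9 and 19.6 CPM in (+/+) animals (log2 fold change −0.41, adjusted p = 0.20 from edgeR). *Gnl2* had 0.23 and *Rrp9* −0.29 on the log2 scale. Among elongation factors *Eef1e1* had −0.34, *Eef1g* −0.21 and *Eef2k*, the kinase that inhibits eEF2, 0.21. Among initiation factors *Eif2b2* had 0.27, *Eif5a2* −0.28 and *Eif2s2* −0.22, and among mitochondrial ribosomal proteins *Mrpl58* had 0.31, *Mrpl13* 0.22 and *Mrps23* 0.20.

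Of 22 genes that control ribosomal protein synthesis (mTOR and MYC pathway members and transcription factors) 17 were negative, with a median log2 fold change of −0.09. *Myc*, which drives transcription of ribosome genes, was at 7.60, 7.92 and 7.15 CPM in (+/−) animals and at 10.6, 9.93 and 9.67 CPM in (+/+) animals. *Mycn* was at 4.50, 7.19 and 7.23 CPM in (+/−) animals and at 9.47, 11.1 and 8.01 CPM in (+/+) animals. *Zfp692*, a zinc finger protein, was at 10.1, 10.4 and 8.70 CPM in (+/−) animals and at 14.1, 14.2 and 12.2 CPM in (+/+) animals. All 3 genes had separated genotypes, with log2 fold changes of −0.42, −0.60 and −0.47 for *Myc*, *Mycn* and *Zfp692* and an adjusted p of 0.17, 0.19 and 0.17 from edgeR. They were taken for the smallest p of their list, and over its 22 genes 5 had every (+/−) animal below and 0 above, against 13.5% and 15.5% of all tested genes.

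**Figure D4:**
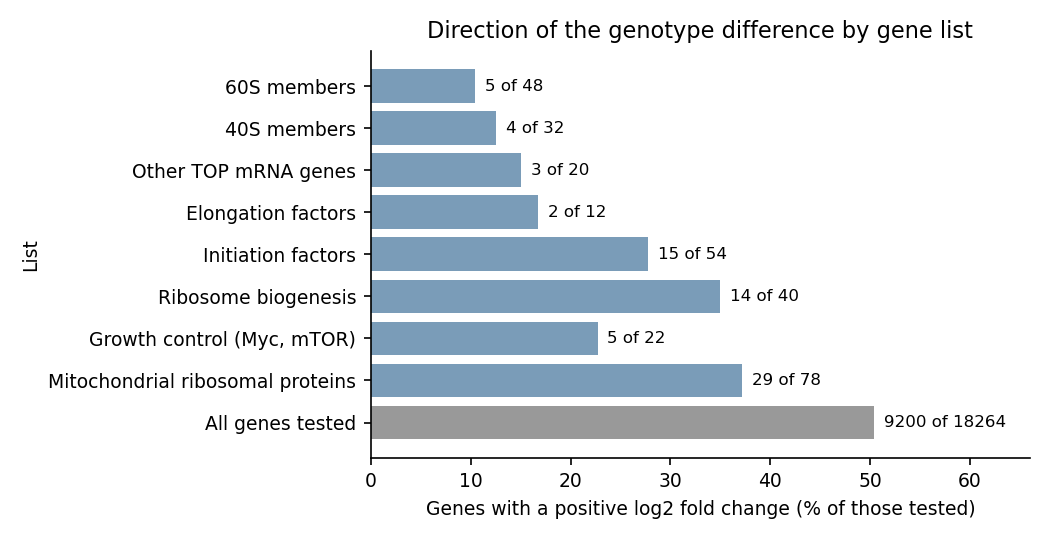
Percentage of tested genes with a positive log2 fold change, (+/−) over (+/+), in each list (bars, with the counts beside them) and over all 18264 genes tested (grey). Of the lists drawn, the members of both subunits have the smallest bars, with 5 of 48 and 4 of 32, and all genes tested reach 50.4%.

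Marker lists of cell types were read in the same animals, and 0 of their genes passed the edgeR test. The 10 neuron markers summed to 2327, 3901 and 4241 CPM in (+/−) animals and to 4650, 5021 and 4397 CPM in (+/+) animals, and were negative in 10 of 10 (median log2 fold change −0.47). The 8 astrocyte markers summed to 12670, 12050 and 11530 CPM in (+/−) animals and to 8321, 8309 and 12680 CPM in (+/+) animals, so that the (+/+) animal 513 was the highest of all 6, and were positive in 6 of 8 (median 0.24). The 8 microglia markers summed to 107 to 202 CPM in (+/−) animals and to 81.5 to 102 CPM in (+/+) animals (8 of 8 positive), the 8 choroid plexus markers to 409 to 1561 CPM in (+/−) and 98.5 to 280 CPM in (+/+) animals (7 of 8 positive), and the 6 ependymal markers to 838 to 966 CPM in (+/−) and 470 to 673 CPM in (+/+) animals (6 of 6 positive). Of the 3 endothelial markers tested 2 were positive (median 0.11). DESeq2 called 2 neuron markers lower, and 1 astrocyte, 4 microglia, 6 choroid plexus, 6 ependymal and 1 fibroblast marker higher, where it called 4.57% of all genes lower and 8.01% higher.

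The smallest p among these lists belonged to *Snhg11*, *Elavl4* and *Dcx* for neurons (log2 fold changes −0.69, −0.55 and −0.63), *S100b*, *Aqp4* and *Gja1* for astrocytes (1.13, 0.46 and 0.39), *Folr1*, *Msx1* and *Cldn2* for choroid plexus (1.01, 0.81 and 2.03) and *Fcrls*, *Cx3cr1* and *C1qa* for microglia (1.16, 1.17 and 1.02). For ependymal cells they were *Tmem212*, *Mlf1* and *Ccdc153* (1.00, 0.95 and 1.10), for the oligodendrocyte lineage *Pdgfra*, *Olig1* and *Mbp* (1.97, 0.80 and −0.22), for fibroblasts *Ptgds*, *Slc6a13* and *Dcn* (1.06, 3.47 and 1.12) and for endothelium *Cdh5*, *Flt1* and *Pecam1* (1.72, 0.11 and −0.04). Fibroblast markers summed to 1150, 377 and 317 CPM in (+/−) animals and to 386, 634 and 156 CPM in (+/+) animals, with animal 505 apart. Erythroid markers were near 0, at a summed 0.13 to 0.30 CPM in (+/−) animals and 0.25 to 0.52 CPM in (+/+) animals. Animal 505 was the lowest in neuron markers and had a member sum of 11665 CPM. Animal 508, the lowest in the members, had 4241 CPM of neuron markers. The (+/+) animals 510 and 511 were the lowest in astrocyte markers and had member sums of 13806 and 12607 CPM. The (+/+) animal 513, the highest in astrocyte markers (12680 CPM, against 12670 CPM in animal 505), had a member sum of 11850 CPM. The (+/−) animal 506 had 12050 CPM of astrocyte markers and 3901 CPM of neuron markers. Its member sum of 12858 CPM was above that of animal 511, so astrocyte markers and member sums were not in reverse order over the animals. The part of cell composition in the levels of the members was not tested.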

How the data were processed

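Raw counts for each gene in each library were deposited by the authors. They had prepared libraries by the dUTP protocol, which marks the strand, and aligned reads with STAR (mm10). The sources used here do not name the tool that counted reads. They also deposited counts divided by DESeq2 size factors and a table of fold changes and p-values, and neither was used.

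The counts of the 2 libraries of an animal were summed, so n = 3 animals per genotype, and nothing in the sources says that animals came from separate litters. Tests were run in R 4.3.3 with edgeR 4.0.16: filter by genotype, TMM, quasi-likelihood test, Benjamini-Hochberg adjustment over 18264 genes, threshold 0.1. CPM values use the TMM-scaled library size, and 0.25 CPM was added before logs. The fit was tested on simulated data. Alternatives were DESeq2 1.42.0, limma 3.58.1 with voom on 12 libraries, other filters and scalings, single libraries and each animal left out. Genetic sex was not a covariate, because only animal 511 differs.

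The members and gene lists were chosen with earlier results of these data known. Named members are the 3 highest per subunit, the 5 largest changes in each direction, those with separated genotypes, paralogs and their partners, stalk, 5S and Diamond-Blackfan genes, members under the filter, and the 3 smallest p of each related list. Members named by their share of the sum were chosen after their values were seen. Protein identities, planned for the paralogs, were replaced by identities of GENCODE M21 transcripts. Sequences and motif counts are from RefSeq (GRCm38.p6). Intervals cover the fit's error only. Some named genes are not reported here.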

Additional observations from a re-analysis of the deposited data

How the results depend on the processing

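Over 16 alternatives, 473 of the 496 values of the 31 named members kept their direction and their side of the threshold, 13 passed it and 10 changed sign. With DESeq2 size factors, the DESeq2 test, no low-count filter, at least 10 counts in every animal, TMM factors without the members or total counts only, 0 members were called and the members' median log2 fold change was −0.12 to −0.07. Of all genes, the DESeq2 test called 8.01% higher and 4.57% lower. The fit without a low-count filter called 3.16% higher and 1.4% lower, and the other settings of this group called 0%. The summed level was lower in (+/−) cultures by each of the scalings (−7.86% to −5.17%).

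Library 1 alone gave 0 members with every (+/−) animal above and 1 with every (+/−) animal below (14.5% and 13.3% of all genes). Library 2 alone gave 2 above (15.1% of all genes). limma voom on 12 libraries with the animal as correlated block called 6 members lower, where 11.6% of all genes were called lower and 12.4% higher. These were *Rpl13*, *Rpl22*, *Rpl29*, *Rpl3*, *Rps28* and *Rpsa*. The 12 libraries still stem from 3 animals per genotype, and the fit used a correlation within animals that was shared by all genes. There were 0 members whose 6 (+/−) libraries lay above every (+/+) library, against 7.22% of all genes. With the library number as a replicate block limma voom called 5 lower (10.4% of all genes lower), again with 0 above (7.22% of all genes). Library numbers did not pair the animals: deviations of same-numbered libraries correlated at −0.02 to 0.02 over 15 pairs of animals. The cause of these differences was not tested.

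With each animal left out in turn, 0 to 1 members were called higher and 0 to 1 lower, both without (+/+) animal 513 (12.3% and 5.95% of all genes). The number of positive members was 5 to 18, of members with every (+/−) animal above 1 to 3 and below 0 to 42. Of all genes, 17.3% to 28.4% were separated upwards and 15.2% to 26.8% downwards in these fits. The median log2 fold change of the members ran from −0.18 to −0.05 (40S −0.18 to −0.04, 60S −0.18 to −0.06). Values close to 0 changed sign in *Rpl7* (−0.010 to 0.083), *Rpl10* (−0.0078 to 0.040), *Rpl11* (−0.12 to 0.016), *Rpl22l1* (−0.11 to 0.0090), *Rps10* (−0.12 to 0.0054), *Rps27* (−0.18 to 0.021) and *Rps4x* (−7e-04 to 0.072). With 3 animals per genotype and this depth, the intervals of single members excluded a 1.5-fold change for 79 of 80.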
